A study of Mus musculus with 1483 samples.

Results

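The Vip interneurons of this series are the 50 cells, of 1483 in all, that were selected on 5 genes: Gad1 at 100 CPM or more, Slc17a7 under 10 CPM, Vip at 300 CPM or more, and Sst and Pvalb each under 300 CPM. CPM is the reads of a gene scaled to a fixed total of reads per cell. The other 1075 cells with Gad1 at 100 CPM or more and Slc17a7 under 10 CPM, called the other GABAergic cells here, were the main comparison, and the mouse was the unit throughout. The cells were single transcriptomes from tissue labelled VISp, the primary visual area of the cortex, of 33 C57Bl/6J mice that each carried an adeno-associated virus in which 1 of 11 enhancers drove the fluorescent protein SYFP2. Sorted fluorescent cells were profiled 1 by 1 with SMARTer v4 chemistry, a full-length method that counts reads and not molecules, so each share given below is a share of the cells that an enhancer labelled and a sort kept. The enhancers with Vip cells were eHGT_017h, eHGT_019h, eHGT_023h, eHGT_079h, eHGT_082h and hDLXI56i, and those without were eHGT_058h, eHGT_064h, eHGT_078h, eHGT_128h and eHGT_140h. The mice differ by enhancer in the labels and by a letter in the cell names, given below, while age and sex were not given in the sources used here. Cells had 833 to 1018507 reads assigned to genes, with a median of 586338. The cell names hold a letter, G or J, whose meaning was not given. All eHGT_023h mice had J. All mice of eHGT_017h, eHGT_019h, eHGT_082h, eHGT_128h and hDLXI56i had G, and the other enhancers had both. Of the Vip cells 47 had G and 3 had J. Any preparation that follows the letter cannot be told apart from enhancer where an enhancer has 1 letter. The cell names hold further codes beside the letter, which were not compared with mouse or enhancer here. No label states that mice of 1 enhancer were prepared apart. The p-values measure the spread between these mice.

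Vip interneurons are GABAergic neurons of the cortex that release vasoactive intestinal peptide beside GABA. They descend from the caudal ganglionic eminence, together with the Lamp5 cells, while Sst and Pvalb cells descend from the medial ganglionic eminence. They are known for inhibiting other interneurons, above all those with Sst, and for responding to acetylcholine and serotonin, and they are commonly divided by a second peptide or calcium-binding protein, such as calretinin (Calb2), enkephalin (Penk), corticotropin-releasing hormone (Crh), neurokinin B (Tac2) or cholecystokinin (Cck).

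Vip and several of the genes that divide these cells are peptide genes, a class for which regulation through the cAMP response element is textbook knowledge, so the bases just before the transcription start of 3 of them are shown for orientation. Promoter windows from RefSeq (build GRCm38.p6) were found for 4 of 8 genes looked up, namely Vip, Tac2, Cck and Npy. The core of the cAMP response element, TGACG, or its reverse complement CGTCA was searched on both strands in the 250 bases before each start, and 17.8% of all 32851 RefSeq windows hold it. Each line gives the 120 bases before the start that the RefSeq window uses, 5′ to 3′ on the strand of the gene, with the match in capitals. For Tac2 and Cck that start is the annotated start of the gene, and for Vip it lies 25 bases inside the annotated gene.
Vip, chr10:5639098-5639217, plus strand: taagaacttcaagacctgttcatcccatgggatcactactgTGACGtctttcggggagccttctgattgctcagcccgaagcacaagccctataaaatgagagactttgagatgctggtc
Cck, chr9:121495695-121495814, minus strand: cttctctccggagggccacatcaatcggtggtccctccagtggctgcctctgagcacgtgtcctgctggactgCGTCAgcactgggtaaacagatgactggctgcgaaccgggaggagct
Tac2, chr10:127724358-127724477, plus strand: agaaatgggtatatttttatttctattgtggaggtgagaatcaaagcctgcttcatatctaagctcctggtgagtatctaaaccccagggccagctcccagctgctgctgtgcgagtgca
The match began 79 bases before that start of Vip, which is 54 bases before the annotated start of the gene, and 47 bases before that of Cck. The windows of Tac2 and Npy held none. These are matches of letters, with no measurement of binding.

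The selecting genes separated the group widely, which is a description since they chose it. Vip (GRCm38.p6 chromosome 10, 5639193 to 5647617) ran from 1711 to 68333 CPM in the 50 cells, with a median of 21580. Among the other GABAergic cells 7 had Vip above 0, and the highest of these stood at 170.4 CPM, so no cell lay near the threshold of 300. No GABAergic cell with Vip at 300 CPM had Sst or Pvalb at 300. Inside the group the highest Sst was 44.2 CPM, the highest Pvalb 39.7, the highest Slc17a7 9.70 and the lowest Gad1 708. The 1 threshold with cells close to it was that on Slc17a7, which loads glutamate into vesicles in excitatory neurons. Another 10 cells, all with Gad1 of 1132 CPM or more, had Vip of 12302 to 33460 CPM and lay outside only because Slc17a7 was between 18.7 and 59.0 CPM. They came from eHGT_017h, eHGT_019h and hDLXI56i mice.

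Genes outside the rule fitted the label. Adarb2, an RNA-editing family gene that marks cells of the caudal ganglionic eminence, was at 100 CPM or more in all 50 cells, with a median of 1318 CPM, and Prox1, a transcription factor of the same lineage, was above 0 in all 50. Lhx6, the transcription factor that marks cells of the medial ganglionic eminence, was at 0 in all 50, where a count of 0 of 50 allows a share of up to 6.0% of cells with a read. Lamp5 was at 0 in 48 cells, and Ndnf and Lsp1, 2 more of the 8 Lamp5 markers, reached 10 CPM in none. The whole list did not separate the groups: its summed level had a median of 800.1 CPM in Vip cells and 661 CPM in the other GABAergic cells, Id2 reached 10 CPM in 54% of Vip and 32% of other cells, and Cplx3 in 26% and 15.9%. Igf1, an insulin-like growth factor, was at 100 CPM or more in 49 of the 50 cells, against 107 of 153 Lamp5 cells and 67 of 245 Sst cells. Cnr1, the cannabinoid receptor, was at 100 CPM or more in all 50.

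Some of the cells also carried markers of the Sncg class, a neighbouring class of the same lineage that is often rich in Cck and Cnr1 and that the rule does not separate. Sncg, gamma-synuclein, was at 100 CPM or more in 8 of the 50 cells, at 114 to 607 CPM, from 5 mice of 2 enhancers. All 8 had Tac2, Cck and Htr3a at 100 CPM or more, 6 had Npy and 4 had Crh, and none had Calb2 or Penk. Of the other 42 cells, 19 had Tac2, 14 Cck, 24 Htr3a, 22 Calb2 and 21 Penk. The 8 cells with Sncg were singled out after their values were seen, and they stayed in the group. The 1 with the highest Sncg also held oligodendrocyte markers, as given below. Among all 50 cells, 3 more of the 6 Sncg markers were rare: Frem1 reached 10 CPM in 7 cells, Krt73 in 3 and Slc17a8 in 0.

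Markers of cells other than interneurons were mostly near 0. The 6 endothelial and mural markers summed to 15.5 CPM at most, and the 6 microglial markers were all at 0 in 46 of the 50 cells. The oligodendrocyte markers were all at 0 in 27 cells and summed to 29795 CPM in 1 cell of an eHGT_082h mouse, while the next cell had 287 CPM. That cell was also the Vip cell with the highest Sncg, 607 CPM, and with the most genes, 11613. It entered none of the fits across genes, because its mouse gave 1 Vip cell. The astrocyte list summed to a median of 279.9 CPM in Vip cells and 46.3 in the other GABAergic cells. The 2 members behind this were Slc1a2, a glutamate transporter, at a median of 62.0 CPM, and Aldoc, a glycolytic enzyme, at 147.8 CPM. The medians of Aqp4, Gfap, Aldh1l1 and Gja1, the defining astrocyte markers, were 0. A Vip cell had 80222 to 787652 reads, with a median of 579100, and the median of the other GABAergic cells was 588239. No doublet caller was run.

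Vip cells were found in 13 of the 33 mice and most often under eHGT_017h. The 3 eHGT_017h mice had 8 of 42, 3 of 32 and 15 of 44 cells in the group, that is 19.05%, 9.38% and 34.1% of their cells, with exact (Clopper-Pearson) 95% binomial intervals of 8.60 to 34.1%, 1.98 to 25.02% and 20.5 to 49.9% that cover counting error only. Together they gave 26 of the 50 cells. The 3 eHGT_019h mice had 2.08%, 2.86% and 13.3%, and the 3 mice of hDLXI56i, a DLX forebrain interneuron enhancer, had 0%, 4.17% and 12.8%. In eHGT_079h the shares were 0%, 4.17% and 6.52%, in the 2 eHGT_082h mice 2.13% and 2.5%, and 1 of 3 eHGT_023h mice had 1 Vip cell. The mice of the other 5 enhancers had none, where a count of 0 allows a share of 5.66% to 8.57% of the cells of a mouse. The GABAergic cells beside them differed by enhancer. In eHGT_017h mice 63 of 104 GABAergic cells were Sst cells, in eHGT_019h 83 of 99 were Lamp5 cells, and in eHGT_079h 85 of 132 were Pvalb cells.

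**Figure D1:**
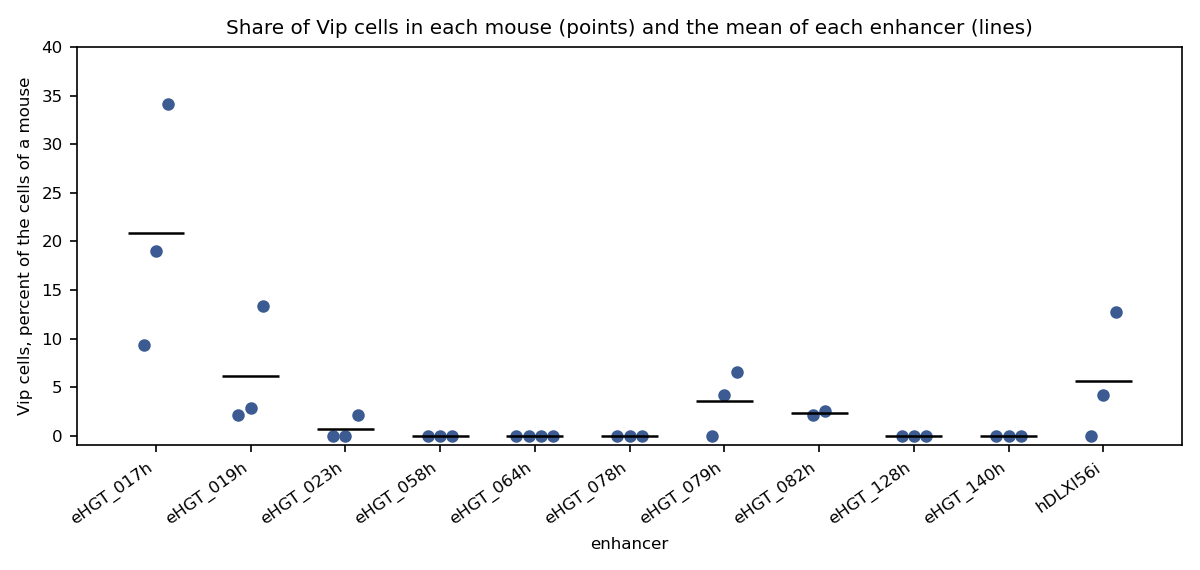
Percent of the cells of each mouse that were Vip cells (vertical axis), by enhancer (horizontal axis), with 1 point a mouse and a line at the mean of the enhancer. The eHGT_017h mice lie at 9.38%, 19.05% and 34.1%, and all 16 mice of eHGT_058h, eHGT_064h, eHGT_078h, eHGT_128h and eHGT_140h lie at 0.

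The share of Vip cells differed between enhancers beyond the spread between mice. Enhancer accounted for 69.9% of the variation between the 33 mice (permutation test with 100000 resamples, p = 0.00554). The eHGT_017h mice averaged 20.8% ± 12.5 (SD, n = 3) and the other 30 mice 1.75%, a difference of 19.1 percentage points (2-sided exact permutation test, p = 0.00055, adjusted p = 0.00605 over 11 enhancers). Without the eHGT_017h mouse with 8 Vip cells, or without that with 15, the adjusted p was 0.0665, at differences of 19.98 and 12.5 percentage points. For the other 10 enhancers the adjusted p was 0.676 or higher. The highest of these means were 6.09% ± 6.28 (SD, n = 3) in eHGT_019h and 5.64% ± 6.51 in hDLXI56i, and their ranges overlapped with that of eHGT_017h.

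Within the group each of the 4 dividing genes was either high or near 0 in a cell. Crh (GRCm38.p6 chromosome 3, 19693401 to 19695396), the releasing hormone of the stress axis, was the most frequent, at 100 CPM or more in 41 cells, with a median of 2330.1 CPM in those and 0 in 7 others. Tac2 (chromosome 10, 127724478 to 127731768), the precursor of neurokinin B, was at 100 CPM or more in 27 cells at a median of 4553 CPM, and at 0 in 21. Calb2 (chromosome 8, 110142526 to 110168212), the calcium-binding protein calretinin, was there in 22 cells at a median of 1169 CPM, and at 0 in 23. Penk (chromosome 4, 4133536 to 4138815), the enkephalin precursor, was there in 21 cells at a median of 1961 CPM, and at 0 in 25. Few cells lay between: 2 for Crh, 2 for Tac2, 5 for Calb2 and 4 for Penk had a value above 0 and under 100 CPM.

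Of other genes that are used to divide Vip cells, Cck and Npy behaved alike. Cck was at 100 CPM or more in 22 cells, with a median of 2373 CPM in those, and at 0 in 25. Npy, neuropeptide Y, was there in 24 cells at a median of 4550.0 CPM, and at 0 in 24. Htr3a, the ionotropic serotonin receptor that marks caudal eminence interneurons, was there in 32 cells at a median of 1104 CPM, and at 0 in 12. Its levels were more spread, with 6 cells above 0 and under 100 CPM, and 16 from 100 to under 1000 CPM. Chat, the enzyme that makes acetylcholine, reached 100 CPM in 1 cell, at 131 CPM.

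**Figure D2:**
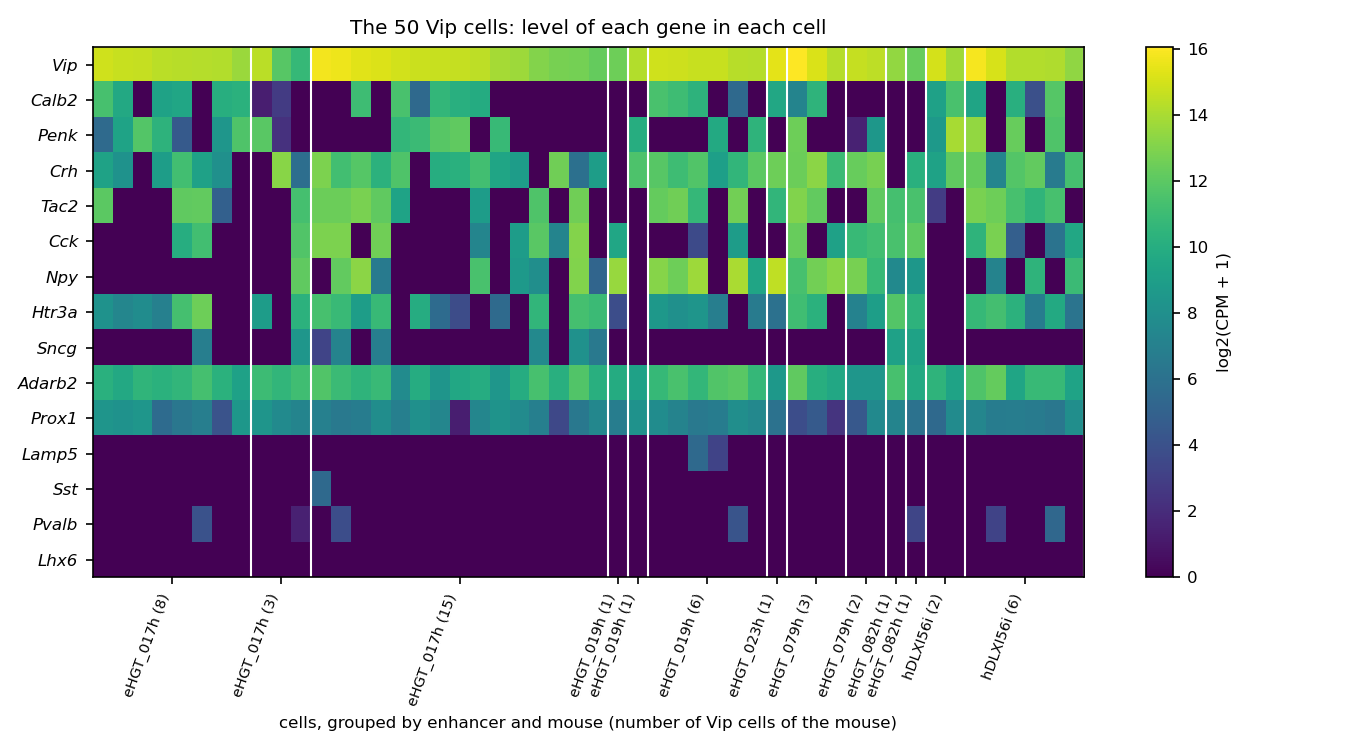
Level of 15 genes (rows) in the 50 Vip cells (columns, grouped by enhancer and mouse) as log2(CPM + 1) from 0 (dark) to 16 (light). Vip and Adarb2 are high in every cell and Lhx6 is at 0 in every cell, while Calb2, Penk, Crh, Tac2, Cck, Npy and Htr3a are each high in some cells and at 0 in others of the same mouse.

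The 4 genes occurred in 11 combinations. The most frequent were Calb2 with Crh and Tac2 in 9 cells, from 5 mice, and Crh with Tac2 in 8 cells, from 5 mice. Calb2 with Penk and Crh made up 7 cells from 3 mice, and Crh alone 7 cells from 5 mice. All 4 genes were present in 5 cells from 3 mice. Penk with Crh and Tac2 alone each made up 4 cells, Penk alone 3, and Calb2 with Penk, Penk with Crh and Tac2, and none of the 4 genes 1 cell each. Cells with 2 or more of these genes numbered 35 of 50.

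**Figure D3:**
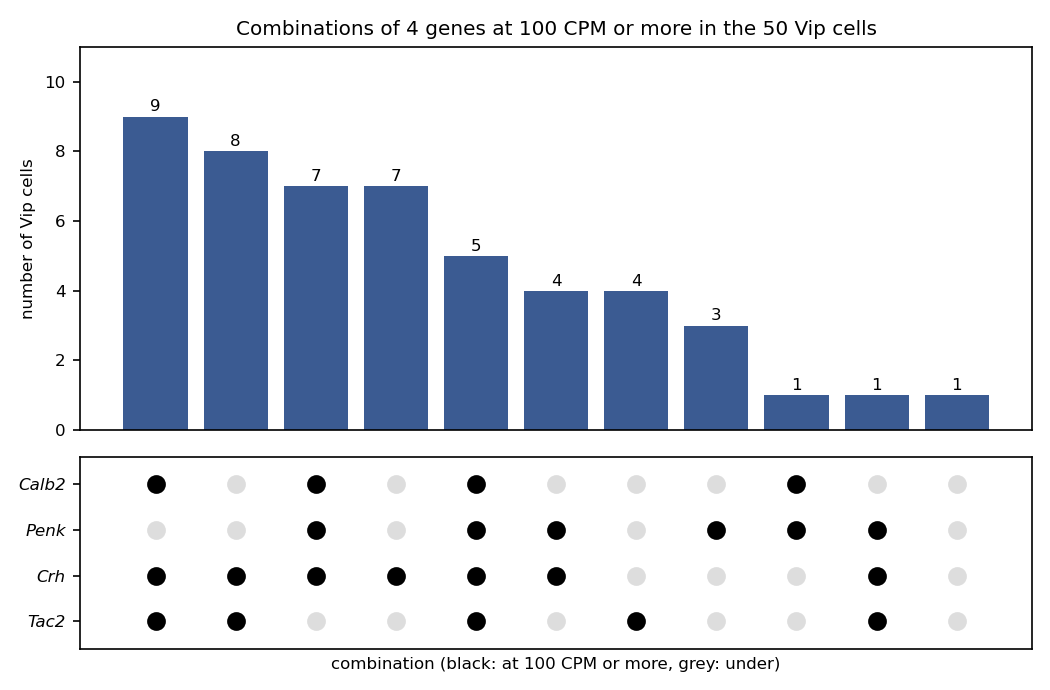
Number of Vip cells (bars, vertical axis) with each combination of Calb2, Penk, Crh and Tac2 at 100 CPM or more (black points under each bar). The 11 combinations hold 1 to 9 cells, and the 5 most frequent all include Crh.

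Penk and Tac2 were mostly in different cells. Of the 50 cells, 15 had Penk without Tac2, 21 Tac2 without Penk, 6 both and 8 neither. By mouse, among those with 3 or more Vip cells, both occurred in 0 of 8, 0 of 3 and 1 of 15 cells in eHGT_017h, 0 of 6 in eHGT_019h, 1 of 3 in eHGT_079h and 3 of 6 in hDLXI56i, where all 3 Penk cells also had Tac2. Penk and Cck were likewise together in 3 cells, with 18 cells of Penk alone and 19 of Cck alone, and Calb2 and Cck were together in 4 cells, with 18 of each alone. Tac2 and Htr3a were mostly together: 23 cells had both, 4 Tac2 alone, 9 Htr3a alone and 14 neither. Cells of 1 mouse share an animal and an enhancer, so these are counts of cells with no test. The 8 cells with Sncg, all with Tac2, Cck and Htr3a and none with Penk or Calb2, were counted with the rest.

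The shares varied from mouse to mouse. Over the 6 mice with 3 or more Vip cells, which hold 41 of them, Crh was at 100 CPM or more in 81.4% ± 26.04 of the Vip cells of a mouse (SD, n = 6), from 33.3% to 100%. Tac2 was there in 56.8% ± 19.2, from 33.3% to 83.3%, and Calb2 in 45.8% ± 26.7, from 0% to 75.0%. Penk was there in 40.97% ± 12.5, from 33.3% to 62.5%. The lowest shares of Crh and Calb2 were in the same eHGT_017h mouse, that with 3 Vip cells. The 3 eHGT_017h mice were set against the 3 others, a comparison chosen after the number of mice was known, and 3 mice against 3 cannot reach a p under 0.1. Crh averaged 62.8% in the eHGT_017h mice and 100% in the others, and Tac2 41.4% and 72.2%, both with p = 0.1 (2-sided exact permutation test, adjusted p = 0.2 over 4 genes). Calb2 averaged 36.1% and 55.6% (exact p = 0.5) and Penk 43.1% and 38.9% (exact p = 1).

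Set beside the other interneuron classes, the dividing genes were not equally restricted to Vip cells. The classes were read from their naming gene, with Lamp5, Sst or Pvalb at 300 CPM or more and Vip and the remaining ones of Sst and Pvalb under 300 CPM. Counted over all mice, Crh was at 100 CPM or more in 82.0% of Vip cells, 11.8% of Sst cells, 0.699% of Pvalb cells and none of 153 Lamp5 cells. Tac2 was there in 54.0% of Vip cells, 4.58% of Lamp5 cells, and none of 245 Sst or 572 Pvalb cells. Penk was there in 42% of Vip and 5.31% of Sst cells. Calb2 was there in 44% of Vip and 28.98% of Sst cells, with exact 95% intervals of 29.99 to 58.7% and 23.4 to 35.1% that overlap. Htr3a was there in 64.0% of Vip cells and 1.31% of Lamp5 cells. Cck, at 44% of Vip, 36.6% of Lamp5 and 61.7% of Pvalb cells, and Npy, at 48.0% of Vip, 96.1% of Lamp5 and 84.9% of Sst cells, were common outside the group. The classes came from different mice and enhancers, so these shares carry no test.

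**Figure D4:**
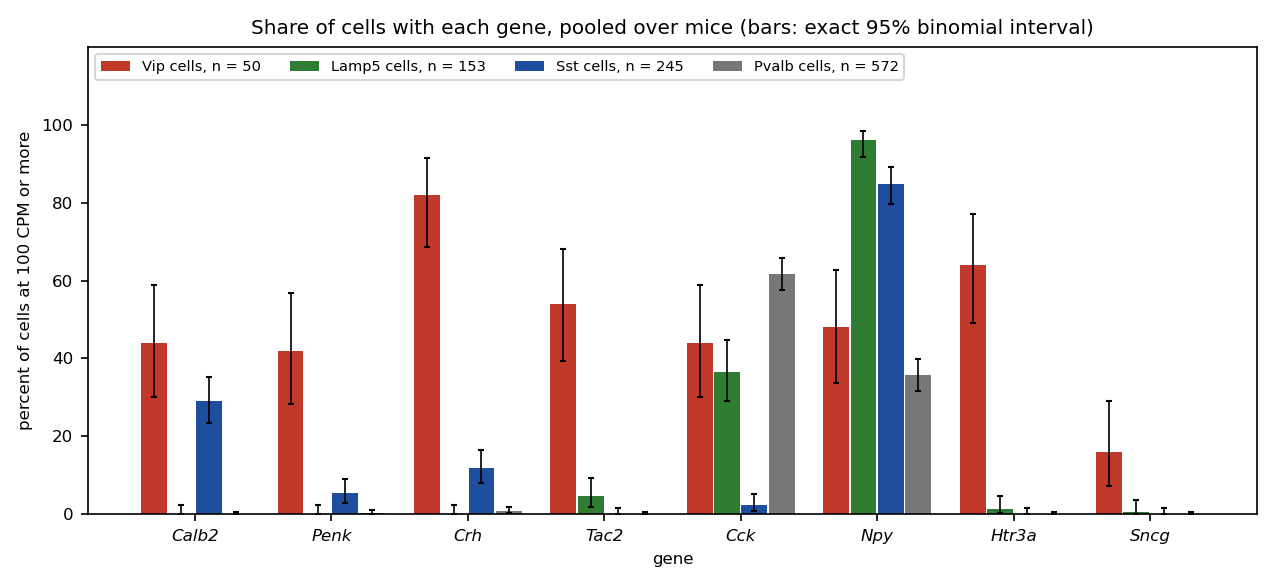
Percent of cells at 100 CPM or more (vertical axis) of 8 genes in Vip, Lamp5, Sst and Pvalb cells pooled over mice, with exact 95% binomial intervals that cover counting error only. Crh, Tac2, Penk and Htr3a are highest in Vip cells, Npy is highest in Lamp5 cells and Cck in Pvalb cells.

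To ask what else goes with each dividing gene, Vip cells at 100 CPM or more were set against those under it within the same mouse, for mice with 2 or more cells on each side, by limma with mouse as a block. A gene was called at a Benjamini-Hochberg adjusted p under 0.05 over all genes tested and an absolute difference of at least 1 in log2(mean CPM + 1). For Calb2 (17 against 18 cells, 4 mice) 0 of 14004 genes were called (0%), with 619 at an unadjusted p under 0.05, or 4.42%. For Penk (15 against 20 cells, 4 mice) 0 of 13976 were called (0%), with 699 or 5.001%. For Tac2 (15 against 14 cells, 3 mice) 0 of 13296 were called (0%), with 903 or 6.79%. The limma voom fit on recovered reads called 0 genes for Calb2 and for Penk, and 16 for Tac2.

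The mouse values behind the Tac2 split show how the genes above moved without passing the test. Cck averaged 120.3, 1142 and 4249 CPM in the cells with Tac2 of the eHGT_019h mouse and the eHGT_017h mice with 8 and 15 Vip cells, in this order, and 0, 0 and 89.4 CPM in those without. The groups did not overlap, and the fitted difference was 7.55 ± 0.82 (SE) with a limma adjusted p of 0.108. Penk averaged 0, 22.4 and 195 CPM with Tac2 and 1132, 1786 and 1738 CPM without, a fitted difference of -6.52 ± 1.06 with an adjusted p of 0.323. Htr3a was on the higher side with Tac2 in all 3 mice, at 243, 2938 and 1378 CPM against 108, 104 and 443 CPM, and the ranges overlapped. In the Penk split, Cck was at 493, 0, 0 and 0 CPM with Penk and 2676, 120.3, 1142 and 3462 CPM without in the hDLXI56i, eHGT_019h and the same 2 eHGT_017h mice (limma adjusted p = 0.872). Neither Cck nor Penk passed a test across all genes here. Calb2 and Cck went the same way, at 493, 3.65, 174 and 32.2 CPM of Cck with Calb2 and 2676, 157, 1189 and 3446 CPM without (limma adjusted p = 0.893). Cells with Sncg at 100 CPM or more stand on the side with Tac2 and on the sides without Penk and Calb2. The eHGT_017h mouse with 8 Vip cells had 1, that with 15 had 4, and the eHGT_019h and hDLXI56i mice had 0. The part of these cells in the differences was not tested.

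The Crh split had calls, and in the main fit all 3 were lower in the cells with Crh. It rested on 2 eHGT_017h mice, with 18 cells with Crh and 5 without, and called 3 of 12535 genes, or 0.0239%. At an unadjusted p under 0.05 were 1117 genes, or 8.91%. Ntm, a neuronal adhesion protein, averaged 81.6 and 129.6 CPM with Crh and 1347 and 1279 CPM without in the mice with 8 and 15 Vip cells. Kcnip4, which binds Kv4 potassium channels, averaged 275 and 326 CPM with and 2027 and 1329.7 CPM without. Cntnap2, which clusters potassium channels along axons, averaged 504 and 397 CPM with and 1849 and 1686 CPM without. The fitted differences were -3.66 ± 0.33, -2.45 ± 0.28 and -1.98 ± 0.24, with limma adjusted p of 0.00131, 0.00945 and 0.0102. With the split at 300 CPM, or with no replicate block, no gene was called. The direction of the calls changed with the fit. Limma voom called 26 genes higher with Crh and 3 lower, with 2 of the 3 main calls among them. The fit with no filter called 24 higher and 14 lower, and that with the mean of log2 values 12 and 33.

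Against the other GABAergic cells of the same mouse, Vip cells differed in 256 genes that were higher and 562 that were lower, of 16474 tested, or 4.97%. Counts of called genes in the lists below stand beside this share of all genes. The fit used the 6 mice with 3 or more cells on each side, 41 Vip and 188 other cells: 3 of eHGT_017h and 1 each of eHGT_019h, eHGT_079h and hDLXI56i. Values are the mean CPM of the cells of a mouse, and differences are in log2(mean CPM + 1), Vip minus other, with SE. Such a difference understates the change of low genes, and where a side is at 0 it depends on the added 1 and is no bound. The median difference over all genes was -0.28, so most genes stood lower in Vip cells on this scale. That median was -0.08 with 10 added in place of 1 and -0.49 with 0.1, and the share of calls that were higher was 31.3%, against 46.03% and 24.01%. The sides also held unequal numbers of cells, down to 3 Vip against 39 other cells in the eHGT_079h mouse. With 5 or more cells on each side, which left 4 mice, the median was -0.18 and the higher share 50.8%. The part of cell numbers in the falls was not tested. The other cells were selected on lacking Vip and were mostly Sst cells in eHGT_017h, Lamp5 cells in eHGT_019h and Pvalb cells in eHGT_079h. Without the 3 eHGT_017h mice the fit kept 3 mice and called 82 genes, of which 65 were among the 818. Of the 20 genes named by size, Tac2, Shisa8, Sall1, Rprm, Angpt1, Chrna5, Rapgef3, Sox6 and Lgals1 did not pass in that fit. Rapgef3 passed in 17 of 20 alternatives, of which some repeat another fit, as given under processing. In the 6 single mice the 12 highest and 8 lowest named genes moved the same way throughout, as the naming rule required.

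**Figure D5:**
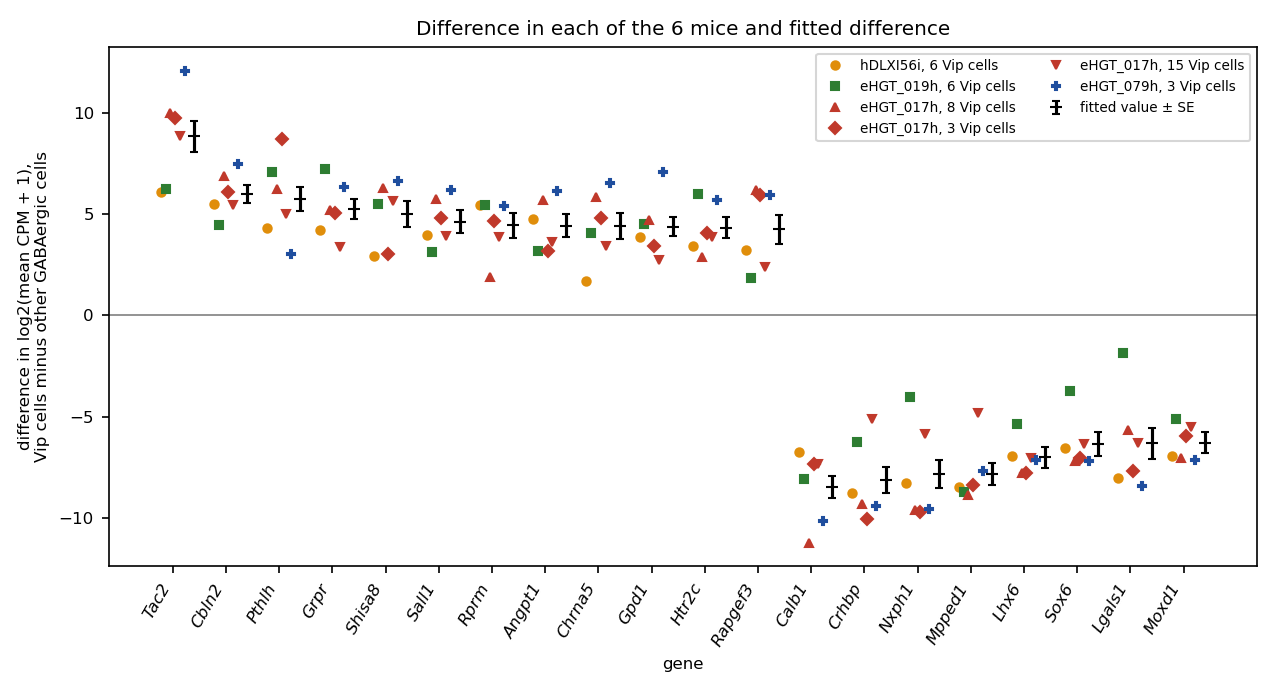
Difference in log2(mean CPM + 1) between Vip cells and the other GABAergic cells (vertical axis) for the 12 named genes that rose and the 8 that fell (horizontal axis), with 1 coloured point for each of 6 mice and the fitted value ± SE in black. All points of the first 12 genes lie above 0 and all points of the last 8 below, by the rule that named them.

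Peptide precursors and their receptors included the strongest rises. Tac2 ran from 857 to 4354 CPM with a median of 2713 in Vip cells and from 0 to 47.4 CPM with a median of 2.22 in the others, without overlap (difference 8.84 ± 0.75, limma adjusted p = 0.000804). Pthlh, a parathyroid-hormone-like peptide, ran from 289.8 to 682 CPM with a median of 430.3 in Vip cells and was at most 48.9 CPM in the others (5.74 ± 0.59, limma adjusted p = 0.000629). It is also a Pvalb marker, and most of these mice gave few Pvalb cells. Over all mice Pthlh reached 10 CPM in 479 of the 1075 other GABAergic cells, or 44.6%, and in 80% of Vip cells. Of the 22 genes of the neuropeptide precursor list 18 were tested, Vip and Sst being left out as selecting genes, and 3 rose and 3 fell: Tac2, Pthlh and Igf1 rose, and Pdyn, the dynorphin precursor, Tac1, the substance P precursor, and Cartpt fell. The median difference of the list was -0.36, against -0.28 over all genes. Pdyn and Tac1 each passed in 18 of 20 alternatives. Pdyn was at 0 in the Vip cells of all 6 mice, and from 0 to 1996 CPM with a median of 746 in the others. Crh, Penk and Cck did not pass. Crh averaged 2820.0 ± 1759 CPM (SD, n = 6) in Vip cells and 209.9 ± 265 in the others (5.20 ± 1.59, limma adjusted p = 0.134), and was on the higher side in 6 of 6 mice. Penk averaged 1495 ± 1016 against 312 ± 441 CPM (4.34 ± 1.48, limma adjusted p = 0.164). Calb2 averaged 656 ± 382 against 175 ± 181 CPM (1.45 ± 1.40, limma adjusted p = 0.601).

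Of the peptide and hormone receptor list, 29 of 30 genes were tested, 2 rose and 8 fell. Grpr, the receptor of gastrin-releasing peptide, ran from 136 to 246 CPM with a median of 162 in Vip cells and was at most 12.5 CPM in the others (5.24 ± 0.50, limma adjusted p = 0.00045). Npy1r, a receptor of neuropeptide Y, ran from 185 to 255 CPM with a median of 216 in Vip cells, a narrow range over 6 mice, and was at most 59.97 CPM in the others (4.21 ± 0.56, limma adjusted p = 0.00207). Among those that fell were Crhbp, which binds and buffers Crh, at 0 in the Vip cells of 5 mice and 15.1 CPM in the sixth, against 75.5 to 1057 CPM in the others (-8.14 ± 0.64, limma adjusted p = 0.00017), and Rxfp3, a relaxin receptor, at 0 in the Vip cells of all 6 mice. The other falls were Cckbr, Oprd1, Oprl1, Nmbr, Sstr1 and Tacr3.

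Receptors for acetylcholine and serotonin moved in both directions, and those for noradrenaline that passed were higher. In the acetylcholine list 14 of 16 genes were tested and 2 rose, the nicotinic subunits Chrna5 and Chrna3, while the muscarinic receptor Chrm2 fell. Chrna5 ran from 31.2 to 169.6 CPM with a median of 65.7 in Vip cells and was at most 9.19 CPM in the others (4.40 ± 0.64, limma adjusted p = 0.00363). In the serotonin list 11 of 12 were tested. Htr2c, a Gq-coupled receptor, rose, from at most 8.93 CPM to 37.2 to 261 CPM (4.33 ± 0.53, limma adjusted p = 0.0016), and the Gi-coupled Htr1a and Htr1d fell. Htr3a averaged 854 ± 390.2 CPM in Vip cells and 45.7 ± 47.8 in the others without overlap and did not pass (5.58 ± 1.46, limma adjusted p = 0.0922). In the adrenergic and dopamine list 9 of 11 were tested, and Adra1b and Adrb1 rose. Adra1b averaged 221 ± 101 CPM (SD, n = 6) against 19.3 ± 17.1 (3.75 ± 0.43, limma adjusted p = 0.00112). Of these receptors only Htr2c passed in all 20 alternatives. Adra1b, Chrna5 and Htr1a failed only without eHGT_017h, while Chrna3 passed in 8, Chrm2 in 7, Htr1d in 6 and Adrb1 in 5.

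The 2 lists of lineage regulators moved in opposite directions. Some of their genes also set Vip cells apart from Lamp5 cells, which share their origin, as given below. Of the 10 genes of the caudal eminence list, all tested, 4 rose and none fell: Egfr, Prox1, Zbtb20 and Npas1. The median of the list was 2.25. Zbtb20 passed in all 20 alternatives, Npas1 in 17, Prox1 in 15 and Egfr in 11, and the ranges over mice overlapped for the latter 3. Zbtb20, a zinc-finger repressor, averaged 290.0 ± 78.5 CPM against 65.1 ± 33.6 without overlap (2.30 ± 0.31, limma adjusted p = 0.00224). Of the 9 genes of the medial eminence list 8 were tested, and 6 fell, among them Nxph1, Lhx6, Sox6, Satb1 and Etv1. Lhx6 was at 0 in the Vip cells of all 6 mice and 39.9 to 218 CPM in the others. Sox6, a transcription factor needed for the maturation of medial eminence cells, averaged 0.103 ± 0.163 CPM against 107 ± 48.9 (-6.34 ± 0.60, limma adjusted p = 0.00045). The lowest values of both in the other cells were in the eHGT_019h mouse, whose other GABAergic cells were 27 Lamp5 cells of 32. The list median was -4.76.

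Genes of synapses and channels gave further differences. Of 26 tested synaptic adhesion genes 5 rose and 3 fell. Cbln2, a secreted organiser that bridges neurexins to the postsynaptic side, averaged 233 ± 108 CPM against 3.18 ± 2.88 (5.98 ± 0.45, limma adjusted p = 0.000123), and Cdh12, Nrxn2 and Pcdh10 were among the others that rose. Nxph1, a neurexin ligand, averaged 11.4 ± 22.3 CPM against 802 ± 97.9 (-7.83 ± 0.71, limma adjusted p = 0.00045), and Nxph2 and Cdh9 fell with it. Of 12 channel genes known from fast-spiking cells, all tested, 5 fell and none rose, and Kcna1, Kcnab1, Kcna2 and Kcnab3 were among those that fell. Kcna2, a Kv1 subunit, averaged 64.2 ± 24.2 CPM against 191 ± 49.5 without overlap (-1.58 ± 0.22, limma adjusted p = 0.00298). Kcna2 and Kcnab1 did not pass without eHGT_017h, Kcna1 passed in 8 of 20 alternatives and Kcnab3 in 11. Of 18 tested genes for GABA handling and GABA receptors, Gabra2 rose and Gabrd, the subunit of extrasynaptic receptors, fell. Over all genes 4.97% were called, so the few calls in the GABA and calcium-binding lists describe single genes and not the lists. Calb1, calbindin, was the 1 gene to fall of 13 tested calcium-binding genes. It ran from 0 to 9.98 CPM in Vip cells and from 267 to 2386 CPM in the others (-8.47 ± 0.54, limma adjusted p = 0.000115).

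The remaining named rises were of varied function. Gpd1, a glycerol-3-phosphate dehydrogenase, averaged 237 ± 133 CPM in Vip cells and 12.5 ± 6.81 in the others. Sall1, a zinc-finger transcription factor, averaged 59.2 ± 27.9 against 1.66 ± 1.5 CPM. Shisa8, which belongs to a family of AMPA receptor auxiliary proteins, averaged 81.8 ± 58.9 against 1.94 ± 3.66 CPM. These were joined by Angpt1, a ligand of the Tie2 receptor (57 ± 26.4 against 1.97 ± 2.11 CPM), Rapgef3, a cAMP-activated exchange factor (59.7 ± 18.1 against 4.48 ± 6.05 CPM), and Rprm (28.4 ± 15.9 against 0.169 ± 0.415 CPM). Their limma adjusted p ranged from 0.000804 to 0.0067. Among the falls were Mpped1 (1.39 ± 3.39 against 339 ± 97.3 CPM), Lgals1, the sugar-binding galectin-1 (1.28 ± 1.26 against 233 ± 152 CPM), and Moxd1, a monooxygenase-like protein, which was at 0 in the Vip cells of all 6 mice and averaged 88 ± 46.8 CPM in the others. Of the 29 genes that name Vip types in taxonomies of mouse visual cortex, 25 were tested and 3 rose: Crispld2, Htr2c and Car10. Crispld2 was higher in 5 of 6 mice and passed in 10 of 20 alternatives, and Car10 passed in 16.

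Of the 16 immediate early genes, which neurons induce quickly on activity, Nr4a1 and Fosl2 rose and Bdnf fell. Nr4a1 averaged 99.2 ± 73.4 CPM in Vip cells and 12.3 ± 9.86 in the others, higher in 6 of 6 mice (2.90 ± 0.37, limma adjusted p = 0.00197). The Vip cells of the eHGT_019h and hDLXI56i mice were the highest, at 203 and 176 CPM. The ranges over mice overlapped, and Fosl2 passed in 12 of 20 alternatives and Bdnf in 16.

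The Lamp5 cells share the origin of Vip cells. In the 3 mice with 3 or more cells of both, 27 Vip and 43 Lamp5 cells of 1 mouse each of hDLXI56i, eHGT_019h and eHGT_017h (the mouse with 15 Vip cells), 124 genes were higher and 85 lower of 14585 tested, or 1.43%. The median difference over all genes was -0.09. The count of 209 cannot be set against the 818 of the fit with 6 mice, since the fit of 3 mice without eHGT_017h called 82. With 3 mice the count moved with the processing: 41 genes passed with 0.1 added, 686 with the mean of log2 over cells, and 49 to 127 with 1 mouse left out. The same Vip cells serve in this comparison and the others, so the comparisons are not independent.

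The dividing genes of Vip cells led the rises. Crh averaged 2662, 2575 and 2027 CPM in the Vip cells of the 3 mice, in the order above, and was at 0 in the Lamp5 cells of all 3 (11.23 ± 0.37, limma adjusted p = 3.5e-05). Calb2 averaged 903, 1055 and 575 CPM in Vip cells and 0, 0.115 and 0 CPM in Lamp5 cells (9.63 ± 0.50, limma adjusted p = 0.000551). Penk averaged 3281, 377 and 915 CPM against 0, 1.35 and 0 CPM (9.62 ± 0.77, limma adjusted p = 0.00284), and the Vip means themselves differed widely. All 3 genes passed under each of 16 alternatives, of which some repeat another fit. Leaving out an enhancer here leaves out 1 mouse, and asking for 5 cells a side leaves out the eHGT_017h mouse. Htr3a averaged 1095, 198 and 942 CPM against 7.46, 6.78 and 0 CPM (7.19 ± 0.85, limma adjusted p = 0.0119) and did not pass without the hDLXI56i mouse. Tac2 averaged 3348, 3206 and 2220.0 CPM against 142, 46.5 and 0 CPM and did not pass (7.25 ± 1.43, limma adjusted p = 0.179), but was called in 9 of 16 alternatives. Npy averaged 592, 7549 and 1741 CPM in Vip cells against 18138, 15075 and 4842 CPM in Lamp5 cells, lower in 3 of 3 mice, and did not pass (limma adjusted p = 0.529).

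Of 12 tested peptide precursors 4 rose against Lamp5 cells, Crh, Penk, Pthlh and Igf1, and none fell. Igf1 averaged 613, 1337 and 948 CPM against 251, 195 and 222 CPM (2.05 ± 0.26, limma adjusted p = 0.0145). Grpr and Npy1r rose, and Npy1r averaged 185, 248 and 255 CPM against 9.5, 19.4 and 18.1 CPM (3.83 ± 0.34, limma adjusted p = 0.00436). Genes of both lineage lists differed between these 2 classes of 1 origin. Nxph1, of the medial eminence list, averaged 22.8 CPM in Vip cells and 815 CPM in Lamp5 cells (-6.04 ± 0.62, limma adjusted p = 0.00669). Npas1 and Zbtb20, of the caudal eminence list, were higher in Vip cells, at 163 against 10.1 CPM and 274 against 52.7 CPM. Adarb2 averaged 2167, 2496 and 1427 CPM against 887, 890.0 and 515 CPM (1.41 ± 0.11, limma adjusted p = 0.00231), and Nfib was lower in Vip cells, at 195, 220.0 and 129 CPM against 560.0, 529.7 and 269 CPM (-1.28 ± 0.19, limma adjusted p = 0.0238). Adarb2, Npy1r and Nxph1 passed in all 16 alternatives, Igf1 in 12, Npas1 in 10, Zbtb20 in 9, Grpr in 8 and Nfib in 7. The falls included Ndnf, a secreted factor of layer 1 neurogliaform cells, at 0 in the Vip cells and 309.7, 323 and 572 CPM in Lamp5 cells, and Unc5d, a netrin receptor that passed in 11 of 16 alternatives, at 0, 0.703 and 0.459 CPM against 125, 168 and 70.7 CPM.

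Of 18 tested GABA genes 6 fell against Lamp5 cells and none rose, with a list median of -0.51 against -0.09 over all genes. The fast-spiking channel list had the same median, -0.51, with 1 of 11 tested higher and none lower. Gabra5, a subunit of extrasynaptic receptors, averaged 0.288, 2.54 and 1.03 CPM in Vip cells and 183, 241 and 45.4 CPM in Lamp5 cells (-5.92 ± 0.77, limma adjusted p = 0.0159). Gabrd, Gabra4, Gabbr2 and Gad2 were among the others that fell. Gabra5, Gabrd and Gabra4 each passed under 11 of 16 alternatives.

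Immediate early genes were higher in Vip cells here, 6 of 14 tested and none lower, with a list median of 3.26. Nr4a2 averaged 78.5, 223 and 264 CPM against 3.32, 16.9 and 0 CPM (5.30 ± 0.87, limma adjusted p = 0.031), and Fosl2 averaged 106, 155 and 145 CPM against 13.1, 10.6 and 2.17 CPM (4.06 ± 0.60, limma adjusted p = 0.0238). Nr4a1, Egr1, Fos and Junb rose with them. Atf3, a stress-induced transcription factor outside the list, averaged 56.9, 798 and 140.4 CPM in Vip cells and was at 0 in the Lamp5 cells of all 3 mice (7.55 ± 0.92, limma adjusted p = 0.0133). Nr4a2, Nr4a1 and Fosl2 did not pass without the hDLXI56i mouse or without the eHGT_019h mouse, and Atf3 did not pass without the latter, whose Vip cells had the highest Atf3.

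Against Sst cells, the main target class of Vip cells in the cortex, 386 genes were higher and 534 lower of 15819 tested, or 5.82%. This fit used 35 Vip and 89 Sst cells of 5 mice, given below in the order hDLXI56i, eHGT_017h (the mice with 8, 3 and 15 Vip cells) and eHGT_079h. The median difference over all genes was -0.22. Leaving out the 3 eHGT_017h mice left 2 mice and 177 genes, of which 159 were among the 920.

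Peptides and lineage genes parted with little overlap. Tac2 averaged 3348, 1685, 857, 2220.0 and 4354 CPM in Vip cells and at most 0.747 CPM in Sst cells (10.91 ± 0.40, limma adjusted p = 8.18e-07). Cck averaged 1585, 428, 1085, 2308 and 1915 CPM against 2.92, 0.521, 10.5, 12.7 and 0 CPM (8.33 ± 0.52, limma adjusted p = 4.14e-05). Penk averaged 3281, 1124, 1313, 915 and 1958 CPM against 13.4, 2.79, 27.2, 0.916 and 15.8 CPM (7.47 ± 0.41, limma adjusted p = 1.59e-05). Pthlh, Igf1 and Pnoc rose as well, so 6 of 16 tested precursors rose, and Pdyn and Cartpt fell. Pdyn was at 0 in the Vip cells of all 5 mice and averaged 617, 1261, 2177, 2242 and 1701 CPM in Sst cells. Crh averaged 2662, 571, 3169.7, 2027 and 5914 CPM in Vip cells and 355, 84.4, 159, 118 and 0.306 CPM in Sst cells, without overlap, and did not pass (5.24 ± 1.63, limma adjusted p = 0.158). Calb2 averaged 903, 891, 2.47, 575 and 511 CPM against 112, 177, 24.3, 245 and 334 CPM, which overlapped (limma adjusted p = 0.522).

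Of the 10 caudal eminence regulators 8 rose against Sst cells: Adarb2, Nfix, Nfib, Prox1, Egfr, Sp8, Zbtb20 and Nr2f2. Adarb2 averaged 2167, 1323, 1916, 1427 and 2116 CPM in Vip cells and at most 0.159 CPM in Sst cells (10.71 ± 0.30, limma adjusted p = 3.18e-07). Nfib and Prox1 were at 0 in the Sst cells of all 5 mice. Of the medial eminence list 6 of 8 tested fell, among them Nxph1, Lhx6, Sox6, Satb1 and Etv1. Cxcl14, a chemokine, averaged 2093, 925, 1092, 1350.0 and 3432 CPM against at most 0.771 CPM (10.29 ± 0.36, limma adjusted p = 8.18e-07). Htr3a averaged 1095, 1167, 573, 942 and 1152 CPM and was at 0 in the Sst cells of all 5 mice (9.90 ± 0.37, limma adjusted p = 8.18e-07).

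Receptors for modulators differed too. Of 13 tested acetylcholine genes Chrna5, Chrna7 and Chrna3 rose and Chrm2 fell. Chrna5 averaged 31.2, 56.3, 45.2, 75.1 and 92.6 CPM and was at 0 in the Sst cells of all 5 mice (5.84 ± 0.58, limma adjusted p = 0.000486). The adrenergic receptors Adra1b, Adra1a and Adrb1 rose, of 9 tested in their list, and Adra1a averaged 77.2, 90.2, 79.3, 116 and 86.6 CPM against 31.2, 15.5, 7.03, 14.1 and 6.42 CPM (2.72 ± 0.41, limma adjusted p = 0.00453). Htr1a fell, from 27.5, 48.7, 47.1, 50.3 and 32.4 CPM in Sst cells to at most 1.39 CPM. Calcium-binding genes rose in 4 of 13 tested, Caln1, Necab1, Necab2 and Ncald, and Calb1 fell. Caln1 averaged 584, 394, 322, 187 and 439 CPM against 2.03, 2.6, 0, 0 and 0.704 CPM (7.65 ± 0.42, limma adjusted p = 1.59e-05). Of 18 tested GABA genes 5 rose, among them Gabra2, Gabrb1, Gabrb2 and Gabrg3, and Gabrd fell. Cdh13, a cadherin, averaged 49, 43.7, 31.4, 52.7 and 82.3 CPM in Vip cells and 709, 948, 946, 778 and 882 CPM in Sst cells (-4.07 ± 0.21, limma adjusted p = 1.11e-05), and passed under all 18 alternatives. Among the receptor, calcium-binding and GABA genes above, Chrna5, Htr1a, Adra1a, Necab2 and Gabra2 passed in 17 of 18 alternatives, Chrna3 in 14, Chrna7 in 13, Gabrb1 in 12, Adrb1 and Gabrd in 7 and Chrm2 in 6.

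Whether the Vip cells that eHGT_017h labels differ from those under other enhancers was compared between 3 eHGT_017h mice (26 cells) and 3 mice of eHGT_019h, eHGT_079h and hDLXI56i (15 cells), a comparison chosen after the number of mice with 3 Vip cells was known. Of 13790 genes 0 were called (0%) by limma, 896 or 6.497% had an unadjusted p under 0.05, and limma voom called 0. Tac2 averaged 1685, 857 and 2220.0 CPM in the eHGT_017h mice with 8, 3 and 15 Vip cells and 3348, 3206 and 4354 CPM in the hDLXI56i, eHGT_019h and eHGT_079h mice, without overlap (-1.29 ± 0.28, limma adjusted p = 0.516). Vip itself, a selecting gene with no test, averaged 22104, 8965 and 25079.8 CPM against 26721, 25644 and 41602 CPM. A limma F test over the 4 enhancers, in which an enhancer with 1 mouse is assumed to vary like the eHGT_017h mice, called 1 of 13790 genes (0.00725%) on the adjusted p alone, with 1690 at an unadjusted p under 0.05. The gene was Kcnip4, at 713, 1016 and 526 CPM in the eHGT_017h mice and 626, 201 and 2.82 CPM in the hDLXI56i, eHGT_019h and eHGT_079h mice (limma adjusted p = 0.028). It did not pass when any of the 3 eHGT_017h mice was left out, or without the eHGT_079h mouse. In the pairwise contrasts of the same fit, 236 genes (1.71%) were called between eHGT_017h and eHGT_079h, whose mouse had 3 Vip cells, 1 between eHGT_079h and hDLXI56i (0.00725%) and 0 in the other 4 (0%), which had 707 to 1815 genes at an unadjusted p under 0.05. Each of the other enhancers had 1 mouse here, so enhancer and mouse cannot be told apart among them.

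Fewer genes were detected in Vip cells than in the other GABAergic cells at an equal number of reads. Reads are not molecules, so the RNA content or capture of a cell cannot be told apart from its expression here. With each cell thinned to 100000 reads, the median Vip cell of a mouse had 5691 to 6947 genes and the median other cell 7569 to 8144. Vip cells had fewer genes in 6 of 6 mice, with a mean difference of -1399 (SD 416, n = 6; 2-sided exact sign-flip test over mice, p = 0.0313, the smallest that 6 mice allow). Thinning left out 1 Vip cell and 3 other cells with fewer reads. Without thinning, the medians were 6956 to 7987.5 genes in Vip cells and 8850.0 to 9673 in the others. The difference was smallest in the eHGT_019h mouse, where medians were 6947 and 7996, and largest in the eHGT_079h mouse, where they were 5691 and 7862.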

How the data were processed

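Single cells sorted for SYFP2 were profiled with SMARTer v4 chemistry, per the labels' protocols. The deposited table holds CPM per gene and cell. Per the submitters' processing notes STAR and mm10 were used, with no version or role given. The counter, annotation and cell filters were not given in the sources used here. Values sum to the same total in each cell, and with 1 read as the smallest step 100% of values were whole reads within 0.01 read, which gave the reads per cell. Cells were grouped by enhancer and mouse from their titles.

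CPM was averaged over the cells of a mouse on each side, 1 was added and log2 taken. Genes that reached 1 CPM in 2 or more profiles were fitted in limma 3.58.1 (trend, robust; statmod 1.5.0, R 4.3.3) with side and mouse as terms, a pairing that comes from the mouse itself. Benjamini-Hochberg adjustment ran over all genes tested, and calls needed an adjusted p under 0.05 and a log2 difference of at least 1. Mice needed 3 cells a side, or 2 in the splits. Genes that chose cells were not tested. Shares were tested by permutation over mice (Python 3.11.15, numpy 2.4.6, pandas 2.3.3, scipy 1.17.1; figures with matplotlib 3.10.9). The fitting script was tested on simulated data.

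Named were Calb2, Penk, Crh, Tac2, Cck and the selecting genes. Also named were the largest called differences with 20 CPM on the higher side and 1 sign in every mouse (12 rises and 8 falls, or 6 and 4 against Lamp5 and Sst cells, or 5 and 3 in the splits), and up to 4 members of each gene list. Other genes in the text are called members of a list. The cells, lists and tests were chosen with earlier results of these data known. Alternatives changed the added value, the filter, the average, the thresholds, the block and the mice or enhancers kept. Some of them repeat another fit. Raising the Vip threshold to 1000 CPM kept the same cells and repeats the main fit. Leaving out an enhancer with 1 mouse repeats leaving out that mouse. Counts of alternatives passed include these repeats. The limma voom fit on recovered reads, the wider Slc17a7 threshold and the comparison of eHGT_017h with other enhancers were chosen after seeing the data. Tests between enhancers were planned over enhancers with 2 or more mice of 3 Vip cells, which only eHGT_017h had, so the F test over 4 enhancers and the test of shares with 3 mice against 3 were added in their place. Intervals and floors (3 counts) cover counting error only, and reads are not independent molecules. Some genes that count in the lists are not reported here by name.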

Additional observations from a re-analysis of the deposited data

Results flagged for a closer look

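Of 130 sets of per-mouse differences for the named genes with 4 to 6 mice, 17 held 1 mouse that lay far from the rest. For independent sets chance gives about 1 in 20. These sets share mice and cells and are not independent, so no excess over chance was tested. Values are differences in log2(mean CPM + 1) of a mouse, Vip minus comparison cells.

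The eHGT_019h mouse, whose other GABAergic cells were 27 Lamp5 cells of 32, stood apart for 3 genes of the medial eminence lineage or of Sst cells. Lhx6 differed by -5.35, against -7.78 to -6.95 in the other mice. There, Sox6 differed by -3.75, against -7.20 to -6.35 in the other mice. Pdyn differed by 0, against -10.96 to -8.08 in the other mice. Its Pdyn was at 0 on both sides.

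The eHGT_079h mouse, with 3 Vip cells and 24 Pvalb cells among its 39 other GABAergic cells, stood apart for 4 genes against those cells. Npy1r differed by 7.64, against 2.07 to 4.14 in the other mice. Rcn1 differed by -6.49, against -1.87 to 0.83 in the other mice. Kcna1 differed by -6.46, against -2.05 to -0.77 in the other mice. Gabra3 differed by -6.33, against -1.97 to -0.37 in the other mice. Against Sst cells the same mouse stood apart for 3 genes. Crh differed by 12.15, against 2.74 to 4.30 in the other mice. Prox1 differed by 3.84, against 7.09 to 7.85 in the other mice. Kcna1 differed by -6.004, against -2.09 to -1.19 in the other mice. Its Sst cells averaged 0.306 CPM of Crh.

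In the eHGT_017h mouse with 15 Vip cells the fall of 4 genes was smaller than elsewhere. Against the other GABAergic cells Mpped1 differed by -4.83, against -8.89 to -7.70 in the other mice. Against Sst cells Crhbp differed by -5.69, against -10.19 to -9.39 in the other mice. Sox6 differed by -6.77, against -7.27 to -7.15 in the other mice. Kcna2 differed by -0.92, against -2.10 to -1.85 in the other mice.

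In the eHGT_017h mouse with 8 Vip cells Nr4a2 differed by -1.60, against 2.89 to 4.52 in the other mice. In the hDLXI56i mouse with 6 Vip cells Pthlh differed by 5.78, against 8.18 to 8.80 in the other mice. In the split by Calb2 the same mouse had a difference in Npy of -10.21, against 0 to 0.87 in the other mice.

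Outside the group, 10 cells with Gad1 at 100 CPM or more had Vip at 300 CPM or more and were kept out by Slc17a7 alone. All 10 had Crh at 100 CPM or more, 6 had Penk, 4 Calb2 and 4 Tac2. With the threshold on Slc17a7 at 100 CPM in place of 10, the fit against the other GABAergic cells had 7 mice and called 1012 genes, 671 of them among the 818.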

How the results depend on the processing

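The share of Vip cells by enhancer kept its side of the threshold in all alternatives for the test over all enhancers, while eHGT_017h against the other mice had an adjusted p of 0.0665 without its mouse with 8 Vip cells or that with 15. The share with Calb2 in eHGT_017h mice minus that in the others, -19.4 percentage points, was 4.17 with 5 Vip cells a mouse, and that with Penk, 4.17, ran from -5.56 to 9.72 with 1 mouse left out. Genes per cell thinned to 100000 reads differed by -1469 to -1244.6 with 1 mouse left out, where 5 mice cannot reach a p under 0.0625. The pairs counted next include alternatives that repeat another fit. Of 3182 pairs of a named gene and an alternative, 2726 kept their call and direction, 356 lost the call, 97 gained one and 3 reversed. The 3 were Maf against Lamp5 cells, at 0.14 in limma voom, 0.47 without enhancer eHGT_019h and -0.80 to 0.47 with 1 mouse left out. The cause of these changes was not tested.

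Against the other GABAergic cells 818 genes were called. The count was 517 with 10 added, 351 with no filter, 333 with 5 cells a side, 82 without enhancer eHGT_017h, 483 without hDLXI56i and 483 to 670 with 1 mouse left out, lowest without the hDLXI56i mouse. The higher share of calls, 31.3%, became 46.5% in limma voom, 50.8% with 5 cells a side and 65.9% without eHGT_017h. Against Lamp5 cells 209 became 41 with 0.1 added, 398 with no filter, 686 with the mean of log2 values, 337 with Slc17a7 under 100 CPM, 127 with 5 cells a side, and 127, 63 and 49 without eHGT_017h, eHGT_019h or hDLXI56i, each of which is 1 mouse (49 to 127). The higher share, 59.3%, became 39.8% with the mean of log2 values. Against Sst cells 920 became 580 with no filter, 1609 with the mean of log2 values, 177 without eHGT_017h, 540 without hDLXI56i and 540 to 932 with 1 mouse left out. The higher share, 42%, became 24.6% with the mean of log2 values, 55.5% in limma voom, 53.6% with 5 cells a side and 59.9% without eHGT_017h. With no replicate block the counts were 963, 225 and 1081.

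In the splits, Penk had 1 call with the mean of log2 values. Crh, with 3 calls, had 18 with 10 added, 38 with no filter, 45 with the mean of log2 values, 29 in limma voom, 12 without cells under 100000 reads, 35 with the split at 30 CPM, and 0 with the split at 300 CPM or with no replicate block. Tac2, with 0 calls, had 58 with no filter, 10 with the mean of log2 values, 16 in limma voom and 0 to 33 with 1 mouse left out, 33 without the eHGT_017h mouse with 8 Vip cells and 2 without that with 15. The eHGT_017h Vip cells against the others had 10 calls with the mean of log2 values. The F test over 4 enhancers, with 1 call, had 0 with 0.1 or 10 added, in limma voom and with 5 Vip cells a mouse, 2261 with no filter, 14 with the mean of log2 values, 92 with Slc17a7 under 100 CPM and 0 to 11 with 1 mouse left out. An edgeR fit was planned only for deposited raw counts and was not run. Limma voom was run on the reads recovered from CPM in its place. Most Vip cells came from few mice, so the number of mice limits every fit.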

Other observations

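Beyond the genes that divide Vip cells, the cannabinoid receptor Cnr1 and the growth factor Igf1 were present in nearly every Vip cell. Cnr1 was at 100 CPM or more in 50 of 50 cells, at a median of 767.6 CPM, against 45.8% of Lamp5, 31.4% of Sst and 10.7% of Pvalb cells. Igf1 was at 100 CPM or more in 98.0% of Vip cells, at a median of 797 CPM, against 69.9% of Lamp5 and 2.10% of Pvalb cells. Nr2f2, a transcription factor of the caudal eminence, was at 100 CPM or more in 44% of Vip, 15.7% of Lamp5 and 10.2% of Sst cells and in none of the 572 Pvalb cells. These shares were counted over cells of different mice and carry no test.

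Over the pooled Vip cells, Npy was more often found with Tac2 and Cck than with Penk. Of the 24 Vip cells with Npy at 100 CPM or more, 18 had Tac2, 16 had Cck and 3 had Penk. The 8 cells with Sncg at 100 CPM or more are among the pooled cells, and 6 of them had Npy. In the eHGT_017h mouse with 8 Vip cells none of them had Npy at 100 CPM, while 5 of 6 of the eHGT_019h mouse with 6 had it. Differences between mice thus enter the pooled counts, which carry no test.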
